A study of Homo sapiens with 8 samples.

Results

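The effect of doxycycline on gene expression was measured in H1 human embryonic stem cells that carried a doxycycline-inducible non-silencing short hairpin RNA (shNS), a hairpin with no intended target. The tested cells had received doxycycline for 7 days (written in the labels as 2 mg/ml), and the cells they were set against were the same shNS line on day 7 without it. There was 1 library per condition, so 2 of the 8 libraries of the series are described here. The members were chosen by the sample labels alone, and 13116 genes could be measured. The other 6 libraries were shNS cells on day 5 and cells with a hairpin against EXOSC3 (shEXOSC3) on days 7 and 5, each with and without doxycycline. All groups shared the H1 line, a hairpin construct kept under puromycin, feeder-free culture on Matrigel in low oxygen, Trizol extraction, ribosomal RNA removal and a ScriptSeq v2 library. Doxycycline exposure and transcription of the hairpin always came together, so their parts in any difference cannot be told apart. Whether the shNS line is 1 clone or a pool is not stated in the labels.

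Doxycycline is a tetracycline antibiotic and the inducer of tetracycline-controlled promoters. Beside that use it binds mitochondrial ribosomes, which resemble those of bacteria, and lowers the synthesis of the proteins that the mitochondrial genome encodes. Mitochondrial stress in mammalian cells is known to act through the integrated stress response, in which phosphorylation of the initiation factor eIF2 slows general translation while the transcription factor ATF4 is translated more. ATF4 then switches on genes for amino acid synthesis and uptake, for aminoacyl-tRNA synthetases and for feedback regulators. A non-silencing line is the usual control for a knockdown because it receives the inducer and makes a hairpin without loss of the target.

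EXOSC3, the gene that the other hairpin targets and a cap subunit of the RNA exosome, was at 27.4 FPKM with doxycycline and 30.3 FPKM without it in shNS cells on day 7 (hg19 chr9:37779711-37785089). FPKM counts fragments relative to transcript length and to the mapped fragments of the library, and it was summed over the transcripts of a gene. In shEXOSC3 cells the same gene had 12.4 FPKM with doxycycline and 25.2 FPKM without it on day 7, so the gene was lower with doxycycline in the line whose label names it. The 28 core pluripotency markers summed to 3484 FPKM with doxycycline and 4024 FPKM without. Summed levels of markers of other cell types, with and without doxycycline, were 14.2 and 15.9 FPKM for mesendoderm, 32.2 and 34.6 FPKM for trophectoderm and amnion, 67.4 and 85.2 FPKM for mesoderm, 117 and 124 FPKM for definitive endoderm and 175 and 199 FPKM for neuroectoderm. Single genes carried much of these sums. CLDN6 made up most of the endoderm sum, at 109 and 115 FPKM with and without doxycycline. KDR made up most of the mesoderm sum, at 41.9 and 59.9 FPKM. NES made up a large part of the neuroectoderm sum, at 81.3 and 104 FPKM. Fibroblast and stromal markers summed to 436 FPKM with doxycycline and 288 FPKM without, and VIM made up most of the treated sum. TBXT, SOX1, FOXA2 and HNF4A, which define early germ layers, were at 0 in both libraries. Read counts are not part of the tables and the depth is unknown. Steps between low values put the relative depth at 1.33, treated over untreated. In bulk RNA, fewer cells of a type and less RNA per cell cannot be told apart.

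Few messenger RNAs differed by 2-fold. A gene was counted as past the size rule at 2-fold, that is at a log2 ratio of at least 1 in absolute value, with 1 FPKM added to both values. Of 13116 genes, 158 were higher with doxycycline (1.2%) and 111 were lower (0.846%). Most of these were short RNAs: of 633 small RNA genes and loci under 300 bp, 136 were higher (21.5%) and 85 lower (13.4%). Among the remaining 12483 genes, which hold the messenger RNAs and long noncoding RNAs, 22 were higher (0.176%) and 26 were lower (0.208%). With 1 library per condition no test between the 2 libraries is possible and none is given. The spread over genes narrowed with level: the central 95% of log2 ratios ran from -0.55 to 0.56 for genes at 1 to 5 FPKM and from -0.44 to 0.26 for genes at 100 FPKM and over. In the authors' deposited table no transcript (0) was marked significant, and the smallest q-value was 0.0732, reached by 15 transcripts. Among them were transcripts of VIM, GPC4, DDIT4, SFRP1 and HBD, which were higher with doxycycline, and of TFPI2 and PLK2, which were lower.

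**Figure D1:**
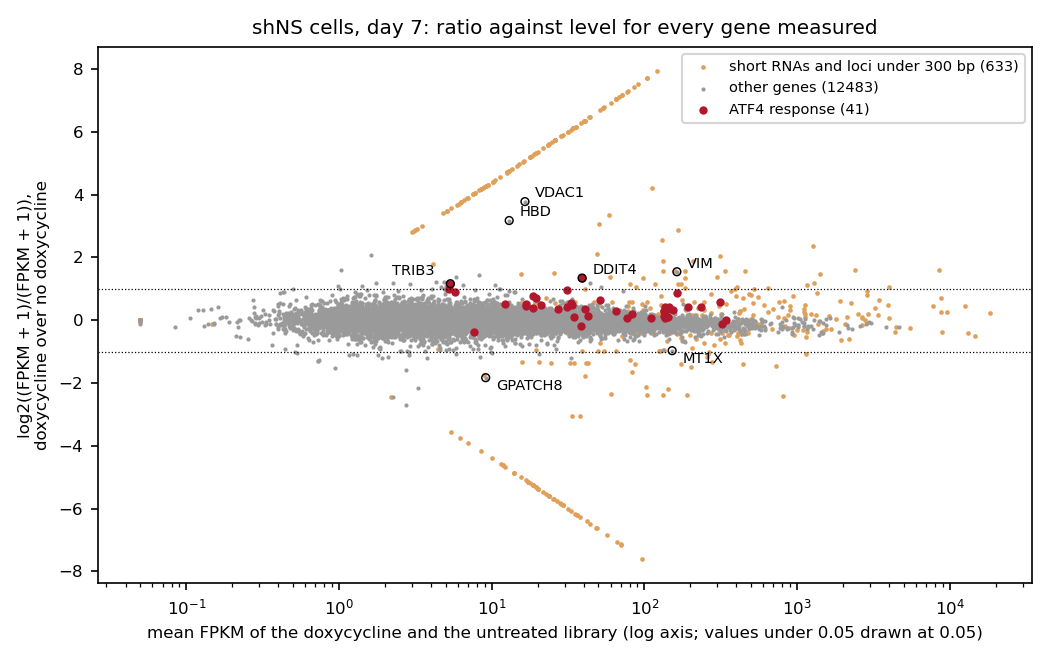
Log2 ratio of doxycycline over no doxycycline (vertical axis) against mean FPKM (horizontal log axis) for 13116 genes of shNS cells on day 7, 1 library each. Orange points are short RNAs and small loci, grey points other genes, red points the ATF4 response list, and dotted lines mark 2-fold. The orange diagonals are short RNAs listed at 0 in 1 of the libraries, while the red points lie mostly above 0.

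Genes of the ATF4 response were mostly higher with doxycycline. Of 43 genes on the list 41 were measured, and 37 were above 0 with doxycycline while 4 were below. The median log2 ratio was 0.41, beside -0.01 over the 12483 genes outside short RNAs, of which 48.5% were above 0 and 51.3% below. Past 2-fold were DDIT4 and TRIB3. The list was drawn up with earlier results of these data known, so its direction is a description and not independent evidence. Members beyond those of the naming rule were picked by role after their values had been seen.

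Regulators of the response had the highest median of the roles, a log2 ratio of 0.91 over 7 genes. DDIT3 (CHOP), a transcription factor of unresolved stress, had 41.4 FPKM with doxycycline and 20.6 FPKM without (log2 ratio 0.97). That difference comes from the sum over its transcripts, since the most abundant DDIT3 transcript alone had 18.7 FPKM with doxycycline and 17.6 FPKM without (0.08). The locus given for DDIT3 (hg19 chr12:57881736-57914300) is long enough to hold other transcripts, and without a stated counting strand overlapping genes cannot be told apart. TRIB3, a pseudokinase that restrains ATF4, had 7.79 FPKM with doxycycline and 2.93 FPKM without (1.16). ATF5, itself linked to the mitochondrial stress response, had 7.36 and 3.19 FPKM with and without doxycycline (1.00). The bZIP partner CEBPB stood at 7.82 and 3.70 FPKM with and without doxycycline (0.91), and CEBPG at 45.9 and 35.8 FPKM (0.35). Each of these levels was higher in the treated library, whereas ATF4 mRNA itself was level, at 343 FPKM with doxycycline and 344 FPKM without. ATF4 is known to be controlled mainly through its translation, which RNA levels do not show.

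Stress effectors followed. DDIT4 (REDD1), an inhibitor of mTORC1 signalling, had 56.5 FPKM with doxycycline and 21.7 FPKM without, a log2 ratio of 1.34 that was the highest of the list. SESN2, another brake on mTORC1, had 20.1 FPKM with doxycycline and 13.6 FPKM without, and CHAC1, which degrades glutathione, had 23.8 and 13.5 FPKM. The exception in this group was GDF15, a secreted marker of mitochondrial disease, with 6.49 FPKM in treated cells and 8.72 FPKM in untreated cells, a log2 ratio of -0.38. In the other 3 tables the log2 ratio of GDF15 was above 0, at 0.19 in shNS cells on day 5 and at 0.39 and 0.81 in shEXOSC3 cells on days 7 and 5.

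Enzymes of amino acid and one-carbon metabolism had a median log2 ratio of 0.42, and 11 of 12 were above 0. ASNS, asparagine synthetase, was at 211 FPKM with doxycycline and 114 FPKM without (0.88). PSAT1 and PHGDH, both of serine synthesis, reached 375 and 268 FPKM in treated cells against 248 and 202 FPKM in untreated cells. The mitochondrial enzymes PCK2, SHMT2 and MTHFD2 had log2 ratios of 0.70, 0.41 and 0.41, and PYCR1 of proline synthesis had 0.42. ALDH18A1, which acts just before PYCR1, was the member below 0, with 35.9 FPKM in treated cells and 41.5 FPKM in untreated cells.

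All 4 amino acid transporters were above 0. SLC7A11, the cystine carrier, had 63.0 FPKM with doxycycline and 40.2 FPKM without, and the cationic carrier SLC7A1 had 24.6 and 17.4 FPKM. Aminoacyl-tRNA synthetases, which charge tRNAs with amino acids, had lower ratios, with a median of 0.20 over 11 genes. Among them GARS1 was highest in ratio, with 166 FPKM in treated cells and 123 FPKM in untreated cells (0.43), and TARS1 was the only one below 0, with 307 and 335 FPKM. AARS1, NARS1 and CARS1 had log2 ratios of 0.08 to 0.09, within the spread of genes at their level.

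The composite element bound by ATF4 with a C/EBP partner reads TGATGNAA, and these letters were searched on both strands of RefSeq promoter windows, 250 bases before to 50 after a start site. They stood in 14 of 36 ATF4 response genes with an entry (38.9%), beside 4.46% of 27305 genes with an entry and 2.69% of 10118 genes measured here. The windows below show the match in capitals with 20 bases on each side, for genes whose match lies before the start site; CHAC1 and ASNS had higher ratios than the list's median, ATF3 lay near it and AARS1 near 0.
CHAC1, GRCh38.p14 chr15:40953242-40953289, plus strand: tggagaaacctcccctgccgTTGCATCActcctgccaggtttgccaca
ASNS, GRCh38.p14 chr7:97872449-97872496, minus strand: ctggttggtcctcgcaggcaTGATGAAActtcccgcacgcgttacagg
ATF3, GRCh38.p14 chr1:212565196-212565243, plus strand: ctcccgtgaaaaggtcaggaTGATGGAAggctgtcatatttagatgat
AARS1, GRCh38.p14 chr16:70289666-70289713, minus strand: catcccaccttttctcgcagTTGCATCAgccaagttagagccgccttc
CHAC1 and AARS1 carry the reverse complement, at -209 and -187 bases from their start sites. ASNS and ATF3 carry the forward letters, at -68 and -191 bases. The 13 measured members with the letters had a median log2 ratio of 0.35 and the 22 members without them had 0.41, so ratios were no higher in members with the letters. A match is a description of letters, not a shown binding site. The share of the list with the letters depends on how the list was drawn up and uses no expression value.

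The same genes could be read in the other 3 pairs of libraries, which share no library with this one. Median log2 ratios of the ATF4 list were 0.36 in shNS cells on day 5, 0.33 in shEXOSC3 cells on day 7 and 0.41 in shEXOSC3 cells on day 5. Of 41 members, 33 were above 0 in every table, beside 13.2% of genes outside short RNAs. A limma fit tested the mean of the 4 ratios, over both lines and both days, against 0. The fit does not require the same sign in every pair, and it includes the shEXOSC3 pairs, which also hold the EXOSC3 knockdown. Fitted over 13116 genes it called 4 genes higher (0.0305%) and 0 lower (0%), with 1972 genes at an unadjusted p under 0.05; TRIB3 (adjusted p = 0.027) and DDIT3 (adjusted p = 0.026) were called beside MIR4639 and SNORD72, and neither held with 1 table left out (adjusted p from 0.25 to 0.30). Fitted without the short RNAs, a choice made after seeing the data, limma called 215 genes higher (1.72%) and 240 lower (1.92%) of 12483. Of the ATF4 list, 22 of 41 members rose in that fit and 0 fell, and 11 to 18 rose when 1 of the 4 tables was left out.

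Each value after ± is the SE of limma, which draws on the spread of other genes as well as the gene's own 4 ratios. Per gene, limma without short RNAs gave TRIB3 a mean log2 ratio of 1.32 ± 0.086, above 0 in 4 of 4 tables. The limma adjusted p of TRIB3 was 7.9e-05, and 5.7e-05 to 0.0074 when 1 table was left out. DDIT3 had 0.93 ± 0.070 (limma adjusted p = 0.00021, and 0.00041 to 0.0074 with 1 table left out), also above 0 in 4 of 4. For DDIT4 the fit gave 0.95 ± 0.13 (limma adjusted p = 0.0049 without short RNAs, 0.0087 to 0.016 with 1 table left out, and 0.13 with short RNAs in the fit). With the table of shNS day 7 itself left out, 13 members of the list rose, which rests on libraries other than those described here. Every other call on the list depends on leaving out the short RNAs.

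**Figure D2:**
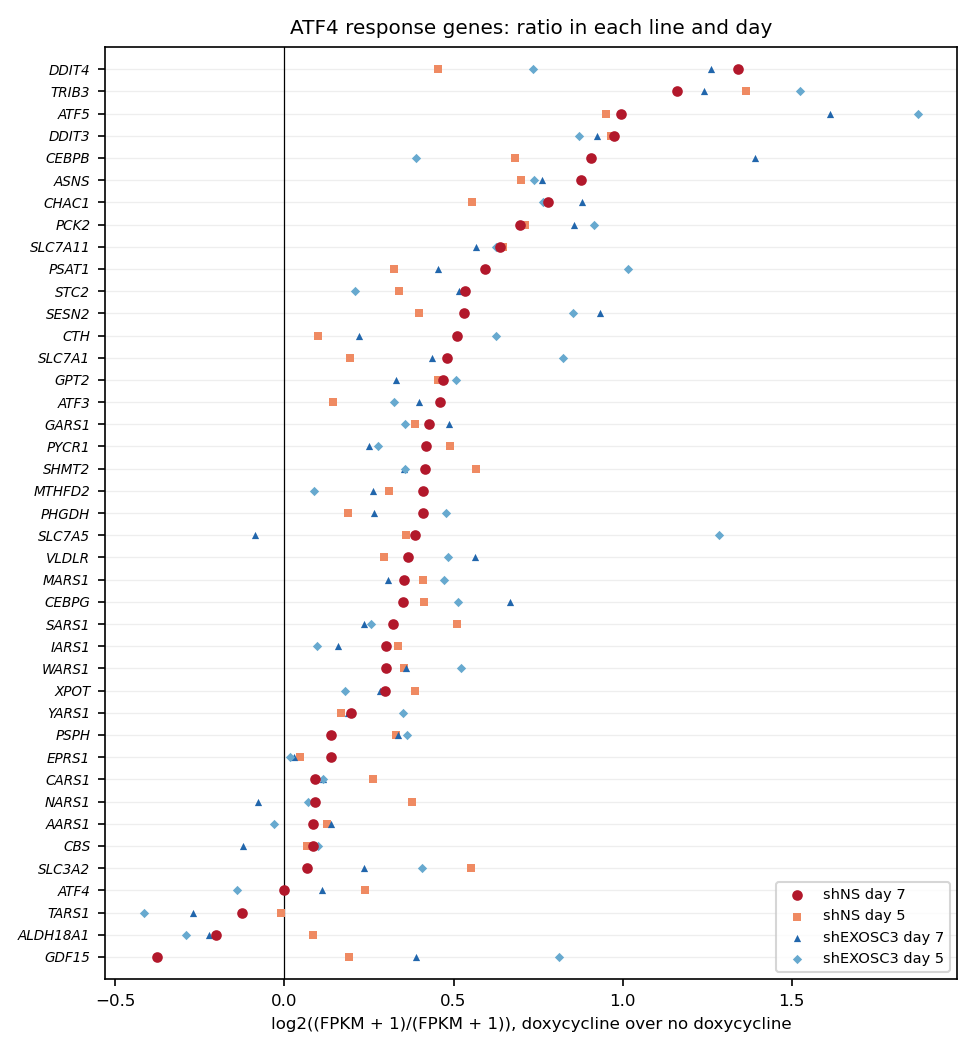
Log2 ratio of doxycycline over no doxycycline (horizontal axis) for the 41 measured ATF4 response genes, 1 row per gene, ordered by the ratio in shNS cells on day 7 (large red circles). Smaller symbols give shNS day 5 and shEXOSC3 days 7 and 5. Of these genes 33 lie above 0 in all 4 pairs, with GDF15 and ALDH18A1 at the low end.

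VIM, the intermediate filament vimentin, was the only gene past 2-fold on the higher side among 727 genes at a mean of 100 FPKM and over outside short RNAs. It had 244 FPKM with doxycycline and 82.9 FPKM without (log2 ratio 1.54, hg19 chr10:17256238-17279592, a locus that also holds the antisense gene VIM-AS1, and counting strand is not given). Untreated levels lay between 79.9 and 88.8 FPKM in all 4 tables, while treated levels were 352 FPKM in shNS cells on day 5 and 431 and 524 FPKM in shEXOSC3 cells on days 7 and 5. No treated value overlapped an untreated one, and the ratio was lowest in shNS cells on day 7. The limma mean was 2.12 ± 0.14 (SE of limma, drawn from other genes as well as the 4 ratios). The limma adjusted p of VIM was 7.9e-05 without short RNAs, 1.5e-05 to 0.0074 with 1 table left out, and 0.063 with short RNAs in the fit.

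VIM is also a marker of fibroblasts. Of 16 fibroblast and stromal genes 9 were measured in shNS cells on day 7, with 4 above 0, 5 below and a median log2 ratio of -0.06. Beside VIM, PDGFRB (0.33), MMP2 (0.24) and S100A4 (0.21) were above 0. COL1A1 (-0.23), ACTA2 (-0.32), POSTN (-0.14), THY1 (-0.11) and COL1A2 (-0.06) were below. DCN, LUM and FAP, which define stromal fibroblasts, were at 0 in both libraries. The list's median was -0.11 in shNS cells on day 5 and 0.16 and 0.59 in shEXOSC3 cells on days 7 and 5, and limma without short RNAs called VIM alone. The part of other cell types in the VIM values was not tested.

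Other genes past 2-fold had lower levels than VIM. GPC4, a cell-surface heparan sulfate proteoglycan, had 61.8 FPKM with doxycycline and 26.6 FPKM without (log2 ratio 1.19), and SFRP1, a secreted WNT antagonist, had 70.5 and 33.5 FPKM (1.05). The serotonin receptor gene HTR7 had 14.8 and 6.32 FPKM with and without doxycycline (1.11), and it was above 0 in all 4 tables, with a limma adjusted p of 0.0019 without short RNAs (0.0027 to 0.021 with 1 table left out). The size for HTR7 depends on the transcript: an HTR7 transcript in the authors' deposited table had 4.81 and 3.69 FPKM with and without doxycycline, while the log2 ratio of the transcript most abundant over the 8 libraries was 1.55. For GPC4 and SFRP1 the log2 ratios in shNS cells on day 5 were 0.25 and 0.09, below those of day 7. Just under 2-fold were DDR2, a collagen receptor, at 15.3 and 7.20 FPKM with and without doxycycline, and TMEM200A at 15.2 and 7.19 FPKM. Both rose in limma without short RNAs (adjusted p = 0.00085 and 0.00044, at most 0.0074 for each with 1 table left out).

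On the lower side, SPP1 (osteopontin) had 19.6 FPKM with doxycycline and 46.5 FPKM without, a log2 ratio of -1.20. Its ratios in the other tables were -0.10, -0.22 and 0.23, and limma did not call it (adjusted p = 0.34 without short RNAs, 0.26 to 0.91 with 1 table left out). TFPI2, a secreted protease inhibitor, had 12.8 FPKM in treated cells and 28.1 FPKM in untreated cells (-1.08) and was below 0 in all 4 tables. The surface antigen gene CD52 had 4.74 and 11.95 FPKM with and without doxycycline (-1.18) and fell across the tables (limma adjusted p = 0.0025 without short RNAs, 0.0023 to 0.024 with 1 table left out). GPATCH8 had 3.44 FPKM in treated cells and 14.8 FPKM in untreated cells, while the other 3 ratios were between -0.09 and 0.14.

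Past 2-fold on both days in shNS cells, and outside short RNAs, were TRIB3, VIM and XCL2 on the higher side and DPPA5 on the lower. XCL2, a chemokine with a near-identical neighbour in the genome (XCL1), had 7.21 FPKM with doxycycline and 2.83 FPKM without. Over the 4 tables limma did not call XCL2 (adjusted p = 0.19 without short RNAs, 0.071 to 0.44 with 1 table left out). DPPA5, a germ cell and stem cell RNA-binding protein gene, had 0.784 FPKM with doxycycline and 2.84 FPKM without on day 7, and 2.30 and 6.56 FPKM on day 5. On day 5, 16 genes outside short RNAs were higher past 2-fold (0.128%) and 12 lower (0.0961%), or 94 (0.717%) and 79 (0.602%) of all genes. Counted over all genes, 18 were higher on both days, 10 lower on both and 17 were past 2-fold in opposite directions. Across 12483 genes, Pearson's r of the day 7 ratio was 0.20 with shNS day 5, 0.32 with shEXOSC3 day 7 and 0.28 with shEXOSC3 day 5, a description in which genes are not independent.

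**Figure D3:**
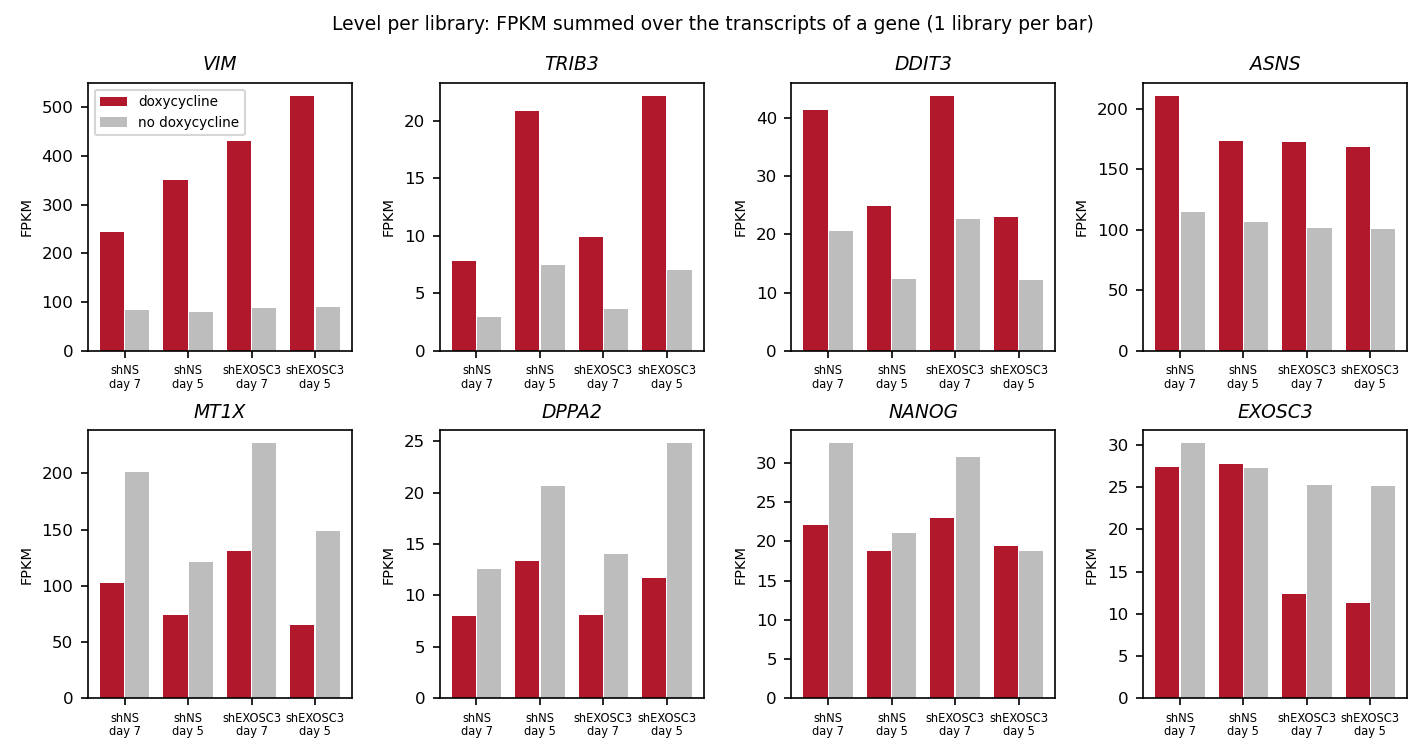
FPKM per library (vertical axes, from 0) of 8 genes in 4 pairs of libraries, with doxycycline in red and without it in grey, 1 library per bar and no error bar. VIM, TRIB3, DDIT3 and ASNS are higher with doxycycline in every pair, MT1X and DPPA2 lower in every pair, NANOG lower in 3 of 4 and EXOSC3 clearly lower in the shEXOSC3 pairs.

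Metallothioneins, small proteins that bind zinc and copper, were lower with doxycycline. All 7 measured MT genes were below 0 in shNS cells on day 7, with a median log2 ratio of -0.67, and together they summed to 310 FPKM with doxycycline and 518 FPKM without. MT1X, the most abundant, had 102 FPKM in treated cells and 202 FPKM in untreated cells (-0.97), MT2A had 71.5 and 113 FPKM (-0.65), and MT1G had 33.9 and 54.5 FPKM (-0.67). MT1H stood just past 2-fold at 6.29 and 13.6 FPKM with and without doxycycline. The rest of the metal handling list lay nearer to 0: ferritin genes FTH1 and FTL had log2 ratios of 0.04 and -0.13, the transferrin receptor gene TFRC 0.18 and the zinc exporter gene SLC30A1 0.15. The median over all 19 measured members was -0.12, or -0.40 over those with a single transcript.

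Of the 7 MT genes, 5 were below 0 in every table. The median log2 ratio over the 7 genes was -0.17 in shNS cells on day 5, nearer to 0 than on day 7. In shEXOSC3 cells it was -1.01 on day 7 and -0.75 on day 5. Without short RNAs, limma called 4 lower (MT1X, MT1G, MT2A and MT1F), or 2 to 5 of the metal handling list with 1 table left out, among them MT1X with a mean log2 ratio of -0.91 ± 0.091 (adjusted p = 0.00085, 0.0014 to 0.0074 with 1 table left out, and 0.072 with short RNAs in the fit). MT genes resemble each other closely, so reads can be shared between copies and the values of single genes are uncertain. MTF1, the zinc-sensing factor that drives these genes, was at 2.45 FPKM with doxycycline and 2.38 FPKM without. MTF1 binds metal response elements with the core TGCRCNC, where R is A or G, searched here as TGCACNC and TGCGCNC on both strands. All 4 MT genes with a RefSeq promoter entry held these letters, beside 33.4% of 27305 genes and 45.8% of genes measured. The 250 bases before the start sites of MT1X and MT2A, the most abundant pair, are shown with each match in capitals, on the plus strand of chromosome 16.
MT1X, GRCh38.p14 chr16:56682220-56682469, plus strand: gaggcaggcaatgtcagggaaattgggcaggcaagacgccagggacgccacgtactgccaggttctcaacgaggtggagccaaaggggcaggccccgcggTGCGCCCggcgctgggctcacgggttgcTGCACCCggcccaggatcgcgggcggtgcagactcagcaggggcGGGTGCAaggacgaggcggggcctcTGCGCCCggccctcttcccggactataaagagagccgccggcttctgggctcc
MT2A, GRCh38.p14 chr16:56608334-56608583, plus strand: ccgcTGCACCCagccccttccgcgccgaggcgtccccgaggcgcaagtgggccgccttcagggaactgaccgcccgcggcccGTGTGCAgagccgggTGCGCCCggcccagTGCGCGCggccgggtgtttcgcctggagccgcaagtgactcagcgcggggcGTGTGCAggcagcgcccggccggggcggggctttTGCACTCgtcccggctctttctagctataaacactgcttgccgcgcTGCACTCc
In MT1X 4 copies lie in these bases and in MT2A 7 copies. The letters are short and common, and the match says nothing of whether the factor was bound.

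Core pluripotency genes remained highly expressed and were on balance slightly lower with doxycycline. Of 24 measured members 19 were below 0 and 5 above, with a median log2 ratio of -0.26 and none (0) past 2-fold. NANOG had 22.1 FPKM with doxycycline and 32.6 FPKM without (-0.54), and POU5F1, which has expressed pseudogenes that can share its reads, had 139 and 171 FPKM (-0.30). SOX2 had 234 FPKM in treated cells and 262 FPKM in untreated cells (-0.16). LIN28A and SALL4 hardly differed, with log2 ratios of -0.01 and 0.03, and OTX2 was the highest member at 42.1 and 30.9 FPKM with and without doxycycline (0.43, or 0.07 with its most abundant transcript alone).

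By limma over the 4 tables the called members were other genes than POU5F1, NANOG and SOX2, although NANOG had a larger ratio on day 7 than several of them. DPPA2, a chromatin factor of early embryos, had 8.01 FPKM with doxycycline and 12.5 FPKM without, and it fell across the 4 tables (limma mean -0.73 ± 0.090, adjusted p = 0.0025 without short RNAs, 0.0040 to 0.019 with 1 table left out). DNMT3B, the de novo DNA methyltransferase, had 321 and 415 FPKM with and without doxycycline, CRIPTO, the nodal coreceptor, 206 and 258 FPKM, and TERF1, a telomere protein, 81.6 and 99.0 FPKM. These 3 genes, with DPPA2 and DPPA3, were the 5 members that fell in limma without short RNAs, and 2 to 6 members fell when 1 table was left out. POU5F1, NANOG and SOX2 were not called (limma adjusted p = 0.34, 0.18 and 0.059, and from 0.070 to 0.69 with 1 table left out). Median log2 ratios of the list were -0.22, -0.15 and -0.23 in shNS day 5 and shEXOSC3 days 7 and 5, and 13 members were below 0 in all 4 tables, beside 13% of genes.

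Germ layer markers went both ways and few reached the minimum level. Of 18 mesoderm genes 7 were measured, from -0.50 to 0.72 in log2 ratio: KDR, a VEGF receptor gene, had 41.9 FPKM with doxycycline and 59.9 FPKM without, and MYL7, an atrial myosin light chain gene, had 5.19 and 2.77 FPKM. Across the 4 tables KDR fell and MYL7 rose (limma adjusted p = 0.0076 and 0.010 without short RNAs, 0.014 to 0.046 and 0.0023 to 0.060 with 1 table left out). The 5 measured mesendoderm genes ran from -0.46 (NODAL) to 0.51 (SNAI1), and limma called 0 of them. The 7 measured neuroectoderm genes had a median of -0.07, and FABP7 among them fell across the tables (limma adjusted p = 0.038 without short RNAs, 0.015 to 0.13 with 1 table left out). Log2 ratios of FABP7 were -0.18 and -0.43 in shNS cells on days 7 and 5, and -1.07 and -1.60 in shEXOSC3 cells on days 7 and 5. Definitive endoderm and trophectoderm lists had 4 measured members each, with medians of -0.10 and -0.09; the first turned to 0.11 with the untreated shEXOSC3 library of day 7 in place of the shNS one.

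Nuclear genes of mitochondrial translation and respiration, the pathway that doxycycline is known to inhibit, were slightly lower in shNS cells on day 7. Among 79 mitochondrial ribosomal protein genes 71 were below 0, with a median log2 ratio of -0.16 and a range from -0.47 to 0.30. Complex I genes had a median of -0.13 over 37 members, of which 30 were below 0, and complexes II to V had -0.16 over 39 members, of which 32 were below 0. No member (0) of these lists passed 2-fold, and limma called 0 of them with or without short RNAs. Chaperones and proteases of the mitochondrial matrix, the classical targets of the mitochondrial unfolded protein response, had a median of -0.04 over 17 genes, and no member (0) passed 2-fold.

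Several other groups had medians of the same small size. Cytosolic ribosomal protein genes had a median log2 ratio of -0.18 over 81 genes, ribosome assembly factors -0.17 over 30, cytosolic heat shock chaperones -0.15 over 23 and replication-dependent histones -0.11 over 64. On day 5 in the same line the medians were 0.07 for the mitochondrial ribosome, 0.12 for complex I, 0.06 for complexes II to V, 0.12 for cytosolic ribosomal proteins and 0.18 for histones, all above 0, while ribosome assembly (-0.0041) and heat shock chaperones (-0.011) lay just below 0. Ratios also followed transcript length. Genes with transcripts under 1000 bases had a median log2 ratio of -0.12 in shNS cells on day 7 and genes of 4000 bases and over had 0.05, while on day 5 these medians were 0.05 and -0.02. Level went with it too, with a median of -0.11 for genes at 100 FPKM and over. Ribosomal and respiratory messenger RNAs are short and abundant, and the part of length and level in the medians of these lists was not tested.

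**Figure D4:**
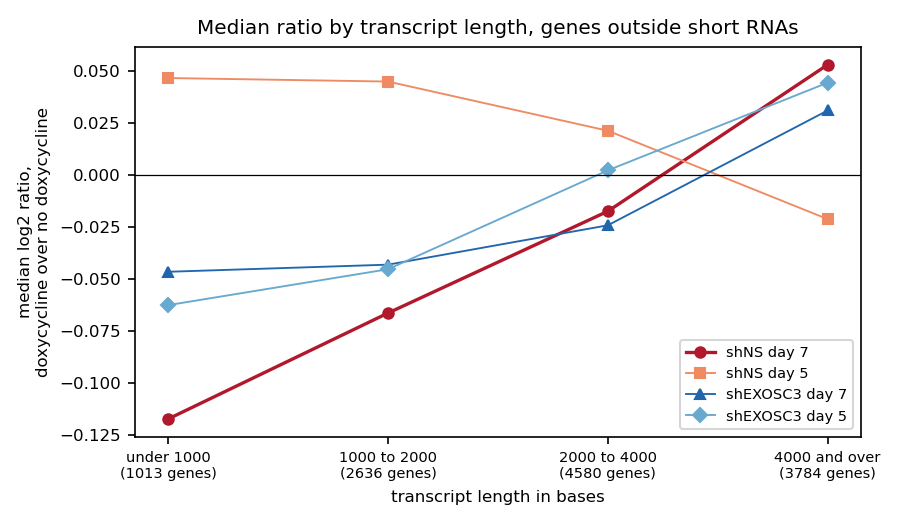
Median log2 ratio of doxycycline over no doxycycline (vertical axis) in 4 classes of transcript length (horizontal axis, bases; gene numbers in parentheses) for genes outside short RNAs, 1 line per pair of libraries. The line of shNS day 7 runs from -0.12 to 0.05 and that of shNS day 5 from 0.05 to -0.02.

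Glycolytic genes were lower on a similar scale, with a median log2 ratio of -0.18 and 21 of 24 members below 0. The median was -0.016 in shNS cells on day 5, and -0.14 and -0.12 in shEXOSC3 cells on days 7 and 5. The part of transcript length and level in these medians was not tested either. LDHA, lactate dehydrogenase A, had 366 FPKM with doxycycline and 500 FPKM without (-0.45), and PGK1 had 258 and 350 FPKM (-0.44). LDHA, PGK1 and HK1 fell in limma without short RNAs (adjusted p = 0.024, 0.033 and 0.049), while 0 to 1 of the list did so when 1 table was left out. HK2 was the highest member at 11.3 FPKM with doxycycline and 8.40 FPKM without. Hypoxia response genes, which share regulators with glycolysis, had a median of -0.05, with VEGFA at 35.0 and 22.5 FPKM (0.61) and ANKRD37 at 0.908 and 3.30 FPKM (-1.17) with and without doxycycline.

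Endoplasmic reticulum chaperones were spread on both sides of 0. Their median log2 ratio was -0.01 over 24 genes, of which 9 were above 0 and 15 below. HERPUD1 and EDEM1, both of protein degradation at that organelle, had log2 ratios of 0.53 and 0.50, with 9.89 and 5.08 FPKM in treated cells against 6.54 and 3.31 FPKM in untreated cells. The secreted chaperone gene MANF was lowest, at 76.1 FPKM with doxycycline and 105 FPKM without. HERPUD1 and EDEM1 were the 2 members that rose in limma without short RNAs (adjusted p = 0.017 and 0.018), but both missed the threshold in at least 1 fit with a table left out (0.047 to 0.058 and 0.035 to 0.092).

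Genes of the p53 pathway, which arrests or kills damaged cells, were mostly lower in shNS cells on day 7, with 25 of 30 members below 0 and a median log2 ratio of -0.20. Of genes outside short RNAs, 51.3% were below 0, and the part of transcript length and level was not tested. The lowest member was PLK2 (-0.57), of which a transcript had 21.7 FPKM with doxycycline and 49.5 FPKM without. Limma over the 4 tables did not call PLK2 (adjusted p = 0.66 without short RNAs). CDKN1A (p21), the inhibitor of cell cycle kinases, had 9.93 FPKM with doxycycline and 14.8 FPKM without (-0.53, or -0.16 with its most abundant transcript alone), and MDM2, the ubiquitin ligase of p53, had 132 and 163 FPKM (-0.30). The highest members were SESN2, which is also on the ATF4 list, CD82 and PMAIP1, at log2 ratios of 0.53, 0.53 and 0.35. In shNS cells on day 5 the median was -0.07. In shEXOSC3 cells the medians were 0.29 on day 7 and 0.16 on day 5, and the difference between the lines was not tested for the list.

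A hairpin transcript can in principle be sensed as double-stranded RNA or compete for the small RNA machinery, so both groups were read. Of 44 antiviral and interferon genes 27 were measured, with a median log2 ratio of -0.08. PSMB8, IFITM3, TAP1 and IFITM1 were the lowest, between -0.80 and -0.58, and IFIT5 and ISG15 were the highest, at 0.51 and 0.32. IFITM3, a membrane protein that blocks virus entry, had 18.7 FPKM with doxycycline and 32.8 FPKM without, and ISG15 had 7.41 and 5.75 FPKM. Genes of the small RNA pathway had a median of 0.01 over 20 members, with DICER1 at 31.8 FPKM with doxycycline and 26.5 FPKM without and DROSHA at 26.1 and 26.4 FPKM. Limma called 0 members of either list with or without short RNAs, and at 1 library per condition small differences were not detectable.

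Immediate early genes, which respond within minutes to growth factor signals, had a median log2 ratio of 0.19, with 18 of 27 members above 0. EGR3, EGR1 and EGR2 stood at 0.78, 0.67 and 0.47, with EGR1 at 31.1 FPKM in treated cells and 19.1 FPKM in untreated cells, while FOS had 15.2 and 11.5 FPKM. In the other 3 tables EGR1 had log2 ratios of -0.02, -0.34 and -0.37, all below 0, and its difference from them was not called by limma (adjusted p = 0.48). DUSP6, a feedback phosphatase of ERK signalling, had 67.7 FPKM with doxycycline and 48.5 FPKM without and rose across the tables (limma adjusted p = 0.0054 without short RNAs). By role in the cell cycle, lists for DNA replication and for mitosis had medians of -0.04 each, over 40 and 39 genes, and 0 members past 2-fold.

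**Figure D5:**
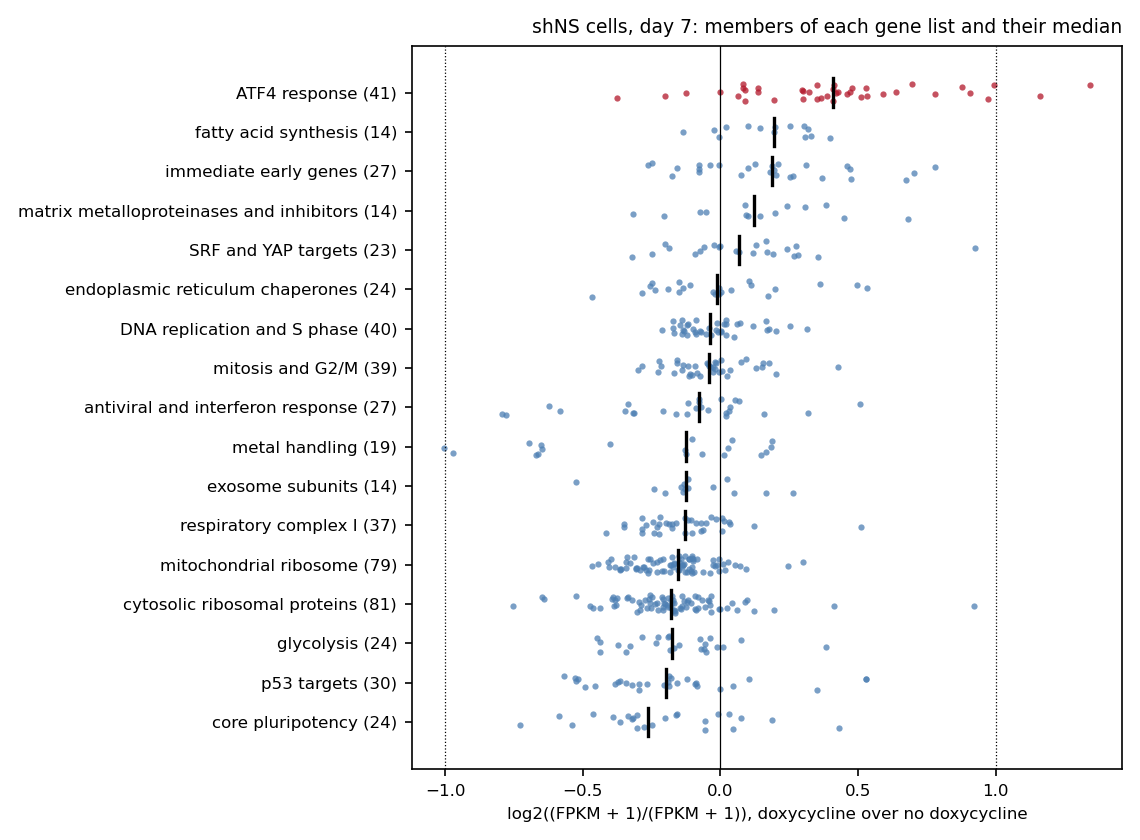
Log2 ratio of doxycycline over no doxycycline in shNS cells on day 7 (horizontal axis) for the members of 17 gene lists, 1 point per gene, with the number measured in parentheses and the median as a black bar. Dotted lines mark 2-fold. The ATF4 list has its median at 0.41 and core pluripotency at -0.26.

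Short RNAs gave the largest ratios. C/D box snoRNAs, which guide methylation of ribosomal RNA, had 42 of 159 members higher (26.4%) and 18 lower (11.3%) past 2-fold. H/ACA box snoRNAs had 16 higher (16.7%) and 10 lower (10.4%) of 96, and microRNA genes had 72 higher (21.5%) and 54 lower (16.1%) of 335. These shares lie near the 21.5% higher and 13.4% lower of all 633 short RNAs and small loci. Medians of the H/ACA and microRNA classes were 0.00, and that of C/D box snoRNAs was 0.27. At such short loci a few reads give a high FPKM, and 106 genes were listed above 0 only with doxycycline and 66 only without.

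The ratio of this pair of libraries was set against the mean of the other 3 with limma. The shNS day 7 arm is 1 ratio, assumed to vary like the other 3, from which all the spread is taken. Over all 13116 genes 36 were higher (0.274%) and 31 lower (0.236%), and all 67 were short RNAs or small loci, of which 54 had 0 FPKM in the other 6 libraries, so that no spread was seen there and these calls say little. Without short RNAs limma called 2 genes higher (0.016%) and 2 lower (0.016%), with 519 at an unadjusted p under 0.05, or 1 to 20 higher and 0 to 26 lower with 1 table left out. VDAC1, the main channel of the outer mitochondrial membrane, had 31.6 FPKM with doxycycline and 1.38 FPKM without (limma adjusted p = 0.012), and SGK3 had 2.06 and 0.000405 FPKM (limma adjusted p = 0.036). In the authors' deposited table the p-value of VDAC1 was 0.253. Untreated VDAC1 was at 59.7, 7.23 and 96.2 FPKM in the other tables, so its level also differed between untreated libraries, and VDAC1 has processed pseudogenes that can share its reads. GPATCH8 and LINC02585 were lower (limma adjusted p = 0.012 and 0.026), and LINC02585 was listed at 0 with doxycycline and at 4.49 FPKM without. No member of the ATF4, metal handling or core pluripotency lists was called in this test (0 of each), which does not show that their ratios were alike.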

How the data were processed

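Total RNA of 8 libraries, 1 per group, was sequenced, and 4 tables hold the deposited FPKM values of the authors, with and without doxycycline for each line and day, per the file headers. The p-value and q-value of each transcript in the authors' deposited tables compare 1 library with 1 library. CASAVA 1.8, TopHat, Cufflinks and builds hg19 and GRCh37 are named in the submitters' processing notes; versions of TopHat and Cufflinks, the annotation, the scaling option and the use of strand were not given in the labels or headers. Depth is unknown, so no counting interval is given, and replicates of a group do not exist.

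Of 49235 transcripts 97.8% could be paired with a gene symbol. FPKM was summed over the transcripts of a symbol, 55 genes with a failed transcript were left out, and genes with a mean of at least 1 FPKM over the 8 libraries were kept (13116). The log2 ratio is doxycycline over no doxycycline with 1 FPKM added to each value, which understates changes of low genes. Limma 3.58.1 in R 4.3.3 fitted the 4 ratios, either as their mean against 0 (3 residual degrees of freedom) or as shNS day 7 against the mean of the other 3 (2 residual degrees of freedom), with Benjamini-Hochberg adjustment over all genes fitted and a threshold of 0.05. The fits were also run on simulated ratios in which genes of like level varied alike. That setting lacks the wider spread of short RNAs and the mix of lines and days, so it does not check the calls given here. These p-values treat line and day as replicates of doxycycline treatment. The ratios of shEXOSC3 cells also hold the EXOSC3 knockdown, and its part in the calls was not tested. Tables were made with Python 3.11.15, pandas 2.3.3 and numpy 2.4.6.

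The genes and lists were chosen with earlier results of these data known. Named by rule were the 15 highest and 15 lowest ratios at a mean of at least 5 FPKM outside short RNAs, up to 2 members at each end of each list, 5 genes at each end of each limma test, up to 10 genes past 2-fold on both days, and EXOSC3, POU5F1, NANOG and SOX2. Not every gene of this rule is described here. Other genes were chosen after their values were seen. Alternatives were the most abundant transcript, single-transcript genes, added values of 0.1 and 5 FPKM, no minimum and a minimum of 5 FPKM, median centring, upper quartile scaling, another untreated library and leaving out each table. The fit without short RNAs and loci under 300 bp was added after seeing the data. Promoter sequences are from RefSeq (GRCh38.p14), while positions of genes are those of the hg19 tables.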

Additional observations from a re-analysis of the deposited data

Results flagged for a closer look

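Set against the mean of the other 3 pairs with limma, the single ratio of shNS cells on day 7 was called different in 4 genes outside short RNAs, with all the spread taken from the other 3 pairs. The difference of log2 ratios was 4.71 for VDAC1, 2.16 for SGK3, -1.88 for GPATCH8 and -2.72 for LINC02585. SGK3 was at 0.000405 FPKM in the untreated library, and LINC02585 was listed at 0 in the treated one. With 1 table left out, 1 to 20 genes were called higher and 0 to 26 lower.

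Among short RNAs the same test gave differences of 7.30 for SNORD36B, 7.17 for SNORD61, 6.92 for SNORD69, 6.76 for MIR621 and 6.36 for MIR628, each listed at 0 in the untreated shNS library of day 7. Below 0 were MIR6515 with -7.15, MIR6747 with -6.84, MIR7974 with -6.64, SNORD37 with -6.48 and MIR4685 with -6.27, each listed at 0 in the treated library. These are differences on a log2 scale with 1 FPKM added, and no fold is given against a value of 0. Most short RNAs called in this test were at 0 FPKM in every library of the other pairs. No spread was seen there, so these differences say little.

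For 2 gene lists the median had one sign on both days in shNS cells and the opposite sign on both days in shEXOSC3 cells. The median of p53 targets was -0.20 in shNS cells on day 7, and that of fibroblast and stromal genes was -0.059. The difference between the lines was not tested for either list.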

How the results depend on the processing

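Both limma fits use ratios paired by line and day within a table; no replicate block could be fitted, since each group has 1 library. Genes past 2-fold numbered 478 higher and 392 lower with the most abundant transcript in place of the sum, 238 and 171 with 0.1 FPKM added, and 22 and 26 without short RNAs. The median of the ATF4 list was 0.30 with the most abundant transcript. That of metal handling was -0.40 over single-transcript genes. With the untreated shEXOSC3 library of day 7 in place of the shNS one, medians were -0.39 for p53 targets and -0.13 for core pluripotency, and turned sign to 0.11 for definitive endoderm and 0.041 for histones. In the same setting the log2 ratios of SCARNA3 (-0.85), MIR1205 (-0.91), SNORD103C (-1.89), MIRLET7F1 (-0.33), MIR1297 (-1.90) and SNORA56 (3.96) turned sign; the cause was not tested.

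Genes that limma called higher over the 4 tables numbered 0 with the most abundant transcript, single-transcript genes, 5 FPKM added or no minimum, 10 with a minimum of 5 FPKM, 215 without short RNAs, 0 to 2 with 1 table left out and 55 to 139 with both. Genes called lower numbered 3 with a minimum of 5 FPKM, 240 without short RNAs and 49 to 152 with 1 table left out as well. For shNS day 7 against the others, 21 were higher with a minimum of 5 FPKM, 2 higher and 2 lower without short RNAs, 23 to 49 higher and 28 to 39 lower with 1 table left out, and 1 to 20 higher and 0 to 26 lower with both. Without replicates or read counts, differences inside the central spread at a gene's level cannot be told from sampling.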

Other observations

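Genes outside the lists also differed in all 4 pairs of libraries. These were picked after seeing their values among those that limma called without short RNAs, and their levels here are those of shNS cells on day 7. ADAM9, a membrane-bound metalloprotease, had 40.6 FPKM with doxycycline and 26.3 FPKM without. MACROH2A1 and MACROH2A2, which encode histone variants of silent chromatin, had 54.1 and 9.70 FPKM in treated cells against 37.3 and 7.25 FPKM in untreated cells. INHBE, an inhibin subunit gene, had 16.3 and 8.89 FPKM with and without doxycycline, TSC22D3 had 9.07 and 5.37 FPKM, and NQO1, an enzyme that detoxifies quinones, had 15.3 and 11.2 FPKM.

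Lower in all 4 pairs were CNTN1, a neural adhesion molecule, with 2.94 FPKM with doxycycline and 6.27 FPKM without, and NPTX1, a neuronal pentraxin, with 1.40 and 3.72 FPKM. LINC-ROR, a long noncoding RNA of pluripotent cells, had 5.66 FPKM in treated cells and 9.85 FPKM in untreated cells. HESX1, a homeobox gene of the early forebrain, had 7.20 and 10.2 FPKM with and without doxycycline. GJA1, the gap junction protein connexin 43, had 300.1 FPKM in treated cells and 383 FPKM in untreated cells.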
